A study of Mus musculus with 24 samples.

Results

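Sham-treated TM3 cells were compared 24 h and 0 h after handling, to see which transcripts then differed from their 0 h level. The 4 sham arrays of 24 h (S24) and the 4 sham arrays of 0 h (S0) were taken by their labels alone, and they are 8 of the 24 arrays of the series. TM3 is an established mouse Leydig cell line, here grown in DMEM/F12 with 5% horse serum and 2.5% fetal bovine serum at 37 °C. Leydig cells are the androgen-making cells of the testis. The cells of both groups had been detached, washed in buffered saline, suspended in binding buffer and strained through a 40-µm mesh. They were put into cuvettes with a 0.4 cm gap in 200 µl, and neither group received a pulse. S0 cells were harvested straight after the sham treatment and S24 cells 24 h later. No array holds cells from before the handling, so 0 h is a handled state. The study speaks of a standard cell culture over this interval. Its methods describe a return to complete medium in plates for other assays, and how the array cells were plated is not given in the sources used here. Cells exposed to nsPEF (80 pulses of 60 ns at 14 kV/cm) and measured at the same times served as a second set of 4 and 4 arrays (E0 and E24). The 4 samples of a group are biological replicates of 1 cell line. The limma p-values below rest on the spread between replicates pooled over the 6 groups of all 24 arrays, not over S0 and S24 alone.

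Each time point had a slide of its own, so the time and the slide cannot be told apart in any value below. The signal at the 75th percentile of the array lay between 377 and 438 intensity units on the S0 arrays and between 425 and 532 on the S24 arrays, and 57.5% to 61.0% of the probes were well above background on these 8 arrays. RNA added in known amount to every sample read 0.68 lower on the log2 scale at 24 h, relative to the 75th percentile (1.07 against 1.75, two-sided exact permutation p = 0.0286, which is the lowest possible for 4 and 4 arrays). All values below are log2 signals relative to the 75th percentile of their own array, so that 0 stands for that percentile, and a difference is 24 h minus 0 h. Scaled on the added RNA instead, the median of all tested probes moved from 0.012 to 0.69, and the share of called probes that were higher at 24 h moved from 49.3% to 98.2%. Falls smaller than about 0.68 therefore turn their sign on that scale, and every direction below is relative to the bulk of the transcripts.

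The steroidogenic label of the cells was met in part. Star, which brings cholesterol into mitochondria, Cyp17a1, which makes androgen precursors, and Nr5a1, the nuclear receptor that drives both, were well above background on all 8 arrays. Cyp11a1, Hsd3b1, Hsd3b6, Hsd17b3, Lhcgr and Nr0b1 were well above background on 0 arrays of either group. The Leydig lineage genes Gata4, Gata6, Nr2f2 and Pdgfra were tested, whereas Tcf21 was near background on all 8 arrays.

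Much of the transcriptome differed a little and a small part by more than 2-fold. Of the 32424 probes that were well above background on all 4 arrays of at least one group, limma called 13798 (42.6%) at an adjusted p under 0.05, of which 6797 (21%) were higher and 7001 (21.6%) lower at 24 h, and the median size of the difference among them was 1.34-fold. A 2-fold difference was passed by 1521 probes (4.69%), 937 of them higher (2.89%) and 584 lower (1.8%). With normexp background correction 259 probes passed it. That correction started from the median signal and added an offset of 50 intensity units, which narrows the log2 differences of dim probes. Without normexp, 953 passed it among the probes detected on all 8 arrays. The largest changes were falls. Beyond 4-fold there were 67 rises and 113 falls, and beyond 8-fold 5 rises and 38 falls. Taken by gene, with the brightest probe of each, 2905 of 14877 genes were called higher (19.5%) and 3643 lower (24.5%), with a median difference of -0.012 over all genes. These shares are the background against which the gene lists below are read. Lists and members were chosen with earlier results of these data known, so their counts are descriptions and not tests. The S24 arrays lay at a mean Euclidean distance of 99.3 from the S0 arrays over 31080 probes, against 53.5 among the S0 arrays and 152.6 between the S0 arrays and the sham arrays of 4 h.

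The same interval in nsPEF cells, measured on other arrays of the same slides, called 15285 of these probes (47.1%). Of the 1521 probes with a 2-fold difference in sham cells, 1477 (97.1%) had the same sign in nsPEF cells and 1249 (82.1%) were called there with that sign. The difference between the intervals was itself called for 141 probes (0.435%). An unadjusted p under 0.05 was found for 5523 of the 32424 probes, a larger share than the 0.05 that would pass without any difference.

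Immediate-early genes are switched on within minutes by serum, growth factors, stress or handling, without new protein being made, and their short-lived transcripts normally fade as fast. Most encode transcription factors, among them the Fos and Jun proteins that pair to form AP-1, the zinc-finger Egr proteins and the orphan receptors of the Nr4a family. Others, such as Dusp1, Zfp36 and Btg2, encode proteins that end the response by removing phosphate from MAP kinases, destroying short-lived mRNAs or slowing proliferation.

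These genes were among the strongest falls of the whole comparison. Of the 21 tested genes of the Egr, Nr4a and Ier list, 19 were lower and 0 higher at 24 h, with a median of -1.96 against -0.012 over all genes, and 14 fell more than 2-fold. The members not called were Plk2 (-0.20) and Nr4a3 (0.076). Of the 12 tested AP-1 genes, 9 were lower and 2 higher (1 higher without S0 replicate 3 or without replicate 1 or 3 of both groups), with a median of -1.03. On the added-RNA scale 14 of the Egr, Nr4a and Ier genes were lower and 2 higher, and of the AP-1 genes 6 were lower and 5 higher. The lower calls of both lists stayed at 19 and between 8 and 9 when single arrays or replicate numbers were left out. In nsPEF cells the medians were -2.14 and -1.02.

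Promoters of 5 of these genes are printed here because cAMP and serum response elements, which bind the factors that switch on immediate-early genes, can be looked for in them. The windows run from 250 bases before to 50 after the transcription start, from RefSeq on GRCm38.p6, written 5′ to 3′ on the strand of the gene. Capitals mark TGACG or CGTCA, the core of a cAMP response element read on either strand, in Fos, Fosb and Nr4a1, the full palindrome TGACGTCA, in which both overlap, in Btg2, and a serum response element in Zfp36.
Fos, chr12:85473640-85473939, plus strand: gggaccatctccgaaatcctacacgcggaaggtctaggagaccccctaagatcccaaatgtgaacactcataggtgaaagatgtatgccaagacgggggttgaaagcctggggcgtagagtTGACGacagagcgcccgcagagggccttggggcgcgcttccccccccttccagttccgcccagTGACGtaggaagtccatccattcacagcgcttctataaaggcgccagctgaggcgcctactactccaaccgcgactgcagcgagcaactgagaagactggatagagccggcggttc
Fosb, chr7:19309996-19310295, minus strand: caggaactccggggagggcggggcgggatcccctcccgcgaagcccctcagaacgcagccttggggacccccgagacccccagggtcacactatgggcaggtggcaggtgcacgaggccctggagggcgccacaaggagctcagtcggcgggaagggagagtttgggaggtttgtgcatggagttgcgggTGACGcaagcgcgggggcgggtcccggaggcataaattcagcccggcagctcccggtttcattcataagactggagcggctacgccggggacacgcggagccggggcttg
Nr4a1, chr15:101266596-101266895, plus strand: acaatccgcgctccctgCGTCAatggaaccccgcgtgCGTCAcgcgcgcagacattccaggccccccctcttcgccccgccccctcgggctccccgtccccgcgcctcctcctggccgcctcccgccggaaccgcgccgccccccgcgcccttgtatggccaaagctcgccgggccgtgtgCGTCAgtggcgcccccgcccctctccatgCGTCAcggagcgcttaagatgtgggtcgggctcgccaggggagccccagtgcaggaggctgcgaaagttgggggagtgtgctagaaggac
Zfp36, chr7:28379179-28379478, minus strand: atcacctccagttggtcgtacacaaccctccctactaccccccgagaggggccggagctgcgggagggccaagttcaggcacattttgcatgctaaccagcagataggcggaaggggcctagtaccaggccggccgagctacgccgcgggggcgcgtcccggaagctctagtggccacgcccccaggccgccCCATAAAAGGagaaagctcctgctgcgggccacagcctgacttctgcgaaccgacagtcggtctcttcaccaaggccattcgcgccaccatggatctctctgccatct
Btg2, chr1:134079106-134079405, minus strand: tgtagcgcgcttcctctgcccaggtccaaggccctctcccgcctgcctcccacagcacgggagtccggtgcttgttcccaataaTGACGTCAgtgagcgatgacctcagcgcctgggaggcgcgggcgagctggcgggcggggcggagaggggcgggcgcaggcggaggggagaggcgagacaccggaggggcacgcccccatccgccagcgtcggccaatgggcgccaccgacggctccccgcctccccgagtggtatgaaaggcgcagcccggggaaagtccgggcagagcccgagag
Of the 28 AP-1, Egr, Nr4a and Ier genes that fell, 24 had a window. The core stood in 14 of them (58.3%), against 32.3% of the windows of 11773 tested genes and 23% of those of 27025 genes, and it was added to the search after the values had been seen. The full element, which contains the core, was in 2 (8.33% against 3.27% of tested genes), a serum response element in 2 (8.33% against 1.61%) and the AP-1 site TGACTCA in 1 (4.17% against 4.91%). A gene with several starts was counted if any of its windows held the letters, and a match is no more than a description of the window.

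Fos, whose promoter holds 2 cores, showed one of the largest falls. It read 6.27, 6.27, 6.08 and 6.15 on the S0 arrays and 0.01, 0.23 and -0.10 on the S24 arrays, the spot of S24 replicate 1 being marked by the scanner software and left out. The groups lay far apart, with a difference of -6.15 (SE 0.11, adjusted p = 1.37e-18, limma with Benjamini-Hochberg adjustment), a 70.8-fold fall. Here and below SE is the standard error of the log2 difference. At 4 h Fos had stood at -1.09, below its level at 24 h. Fosb read 3.35, 3.27, 3.32 and 3.40 on the S0 arrays and -2.94, -3.31, -3.49 and -3.42 on the S24 arrays, a difference of -6.62 (SE 0.10, adjusted p = 4.55e-21) with no overlap. Its other, dimmer probe was no longer well above background at 24 h and was at least 9.70-fold lower.

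Nr4a1, an orphan receptor that is also a textbook target of luteinizing hormone in Leydig cells, was the probe with the smallest p of the whole comparison. It read 6.62, 6.68, 6.60 and 6.59 on the S0 arrays and 1.60, 1.51, 1.52 and 1.48 on the S24 arrays, with 3.08 on average at 4 h. The difference between 24 h and 0 h was -5.09 (SE 0.042, adjusted p = 2.23e-25), or 34.2-fold, with every S24 array far below every S0 array. Its relative Nr4a2 fell by 2.47 (SE 0.069, adjusted p = 3.48e-16), and in nsPEF cells by 2.95.

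Jun, the main partner of Fos, read 6.05, 6.00, 5.96 and 5.99 on the S0 arrays and 2.10, 2.13, 2.18 and 2.16 on the S24 arrays, and its mean at 4 h had been 2.21. It fell by 3.85 on the log2 scale (SE 0.047, adjusted p = 1.80e-22), and the 4 h and 24 h means were close together. Junb fell by 1.99 (SE 0.067, adjusted p = 5.71e-15) and Jund by 1.51 (SE 0.059, adjusted p = 7.58e-14). Atf3, a stress-induced partner of Jun, read 1.79, 1.63, 1.81 and 1.73 on the S0 arrays and -2.73, -2.65, -2.73 and -2.77 on the S24 arrays, which is a 22.0-fold fall with no overlap (SE 0.12, adjusted p = 8.19e-16). Fosl1 went the other way. This slower AP-1 member read 2.10, 2.04, 2.13 and 2.27 on the S0 arrays and 2.87, 2.95, 2.87 and 2.71 on the S24 arrays, a rise of 0.71 (SE 0.088, adjusted p = 1.95e-06), and at 4 h it had been higher still, at 5.12.

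The Egr genes differed in the order of the 3 time points. Egr1 read 5.59, 5.61, 5.59 and 5.49 on the S0 arrays and 3.23, 3.13, 3.34 and 3.23 on the S24 arrays, a difference of -2.34 (SE 0.076, adjusted p = 4.00e-15), and at 4 h it had been lower, at 1.72. Egr2 read 2.88, 2.93, 2.75 and 2.82 on the S0 arrays and -1.48, -1.57, -1.44 and -1.78 on the S24 arrays, a 21.3-fold fall (SE 0.095, adjusted p = 4.61e-18), and at 4 h its mean had been -0.42, between both groups. Egr3 read 0.07, 0.16, 0.02 and 0.32 on the S0 arrays and -1.90, -1.94, -2.10 and -2.30 on the S24 arrays, a fall of 2.20 (SE 0.14, adjusted p = 1.21e-10), while its 4 h mean, 0.50, had been above both. A second Egr3 probe fell by 2.38, and a dim one that was not well above background at 24 h was at least 1.47-fold lower.

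Among the genes that close down the response, Dusp1, a phosphatase of MAP kinases, read 4.42, 4.58, 4.21 and 4.41 on the S0 arrays and 0.75, 0.81, 0.88 and 0.73 on the S24 arrays. It fell by 3.61 (SE 0.073, adjusted p = 1.59e-18), to slightly above its 4 h mean of 0.46. Zfp36, whose protein binds AU-rich elements and destabilises cytokine mRNAs and whose promoter holds the serum response element printed above, read 3.83, 3.78, 3.79 and 3.89 on the S0 arrays and -0.22, -0.36, -0.04 and -0.31 on the S24 arrays. That is a 16.6-fold fall (SE 0.090, adjusted p = 7.10e-18). Btg2, an antiproliferative gene with the full cAMP response element in its window, read 2.32, 2.48, 2.44 and 2.59 on the S0 arrays and -1.03, -0.97, -0.89 and -1.08 on the S24 arrays and fell by 3.45 (SE 0.077, adjusted p = 7.10e-18), and its second probe fell by 2.86. Ier2 fell by 2.58 (SE 0.061, adjusted p = 1.93e-17) and Csrnp1 by 2.12 (SE 0.066, adjusted p = 2.00e-15). In all of these the S0 and S24 arrays did not overlap, as was the case for 46.9% of all tested probes.

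**Figure D1:**
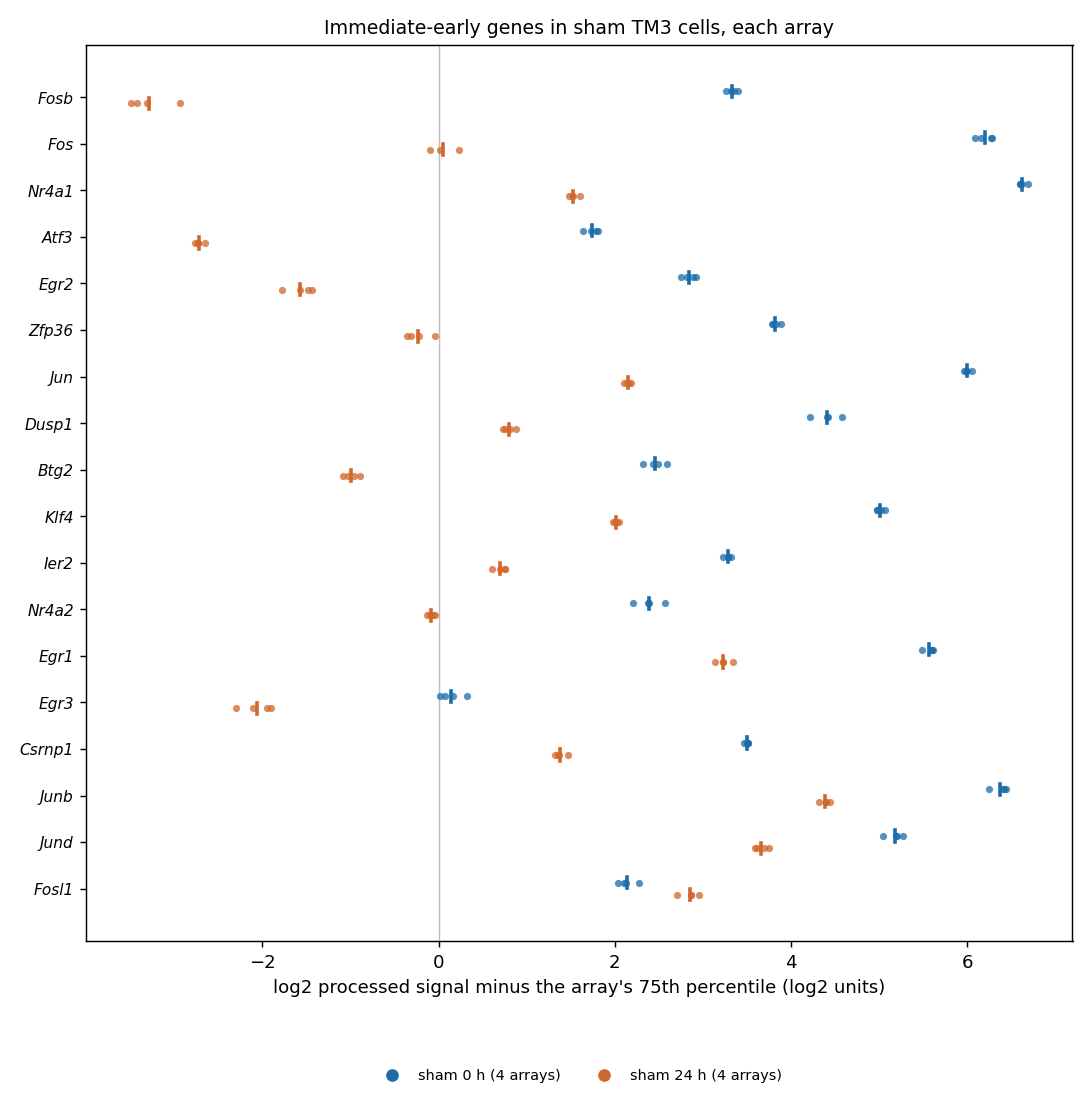
Immediate-early genes on each array of sham TM3 cells. The horizontal axis is the log2 processed signal minus the 75th percentile of the array, points are the 4 arrays of a group (3 for Fos at 24 h) and short bars their means. For Fosl1 the S24 points (2.71 to 2.95) lie to the right of the S0 points (2.04 to 2.27), and for the other 17 genes they lie to the left.

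The next layer of factors and regulators fell less evenly. Of 11 tested Klf factors, zinc-finger proteins of which several are immediate-early genes, 8 were lower and 1 higher (median -0.32). Klf4 read 5.02, 5.06, 4.97 and 4.97 on the S0 arrays and 1.97, 2.03, 2.00 and 2.04 on the S24 arrays, a fall of 2.99 (SE 0.054, adjusted p = 2.55e-19), and its mean at 4 h had been 3.58, about midway. Klf6 fell by 1.01 (SE 0.056, adjusted p = 2.33e-11) and Klf2 by 0.98 (SE 0.17, adjusted p = 0.000112), whereas Klf5, a factor linked with proliferation, rose by 0.54 (SE 0.052, adjusted p = 6.85e-08). Klf10, itself induced by TGF-beta, fell by 1.11 on its bright probe, and on the probe of another transcript it was at least 7.62-fold lower.

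Of 16 tested genes that feed back on MAP kinases, 7 were lower and 3 higher. The median was -0.04, close to that of all genes, and 4 were lower without replicate 1, 2 or 4 of both groups. Dusp5 fell by 1.00 (SE 0.18, adjusted p = 0.000173) and Dusp8 by 0.69 (SE 0.13, adjusted p = 0.000294). Of 4 tested ligands of the EGF receptor, 2 were lower. Hbegf read 0.93, 0.91, 0.85 and 1.01 on the S0 arrays and -0.15, -0.17, -0.18 and -0.21 on the S24 arrays, after a mean of 2.92 at 4 h, and Ereg read 1.62, 1.73, 1.37 and 1.53 on the S0 arrays and 0.86, 0.82, 0.85 and 0.60 on the S24 arrays, after 3.85 at 4 h. Both stood above their starting level at 4 h and below it at 24 h. The differences were -1.10 for Hbegf (SE 0.091, adjusted p = 8.01e-09) and -0.78 for Ereg (SE 0.11, adjusted p = 1.49e-05), and the arrays did not overlap.

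Hes1, a repressor that Notch signalling induces and that many cells also make within an hour of serum, read 1.37, 1.35, 1.18 and 1.18 on the S0 arrays and -2.89, -2.90, -2.52 and -2.71 on the S24 arrays. It fell by 4.02 (SE 0.12, adjusted p = 6.41e-16), with no overlap, and had been at -1.44 at 4 h. Of the 9 tested genes of the Notch list, Hes1 included, 4 were lower and 1 higher with a median of -0.14, and 2 were lower without S0 replicate 2 or 4, S24 replicate 4, or replicate 2 or 4 of both groups. Targets and inhibitors of TGF-beta and BMP signalling were lower as well, 12 of 18 tested, with 4 higher and a median of -0.52 (-0.59 in nsPEF cells). On the added-RNA scale 8 of them were higher and 5 lower. The 4 Id genes, direct BMP targets whose proteins block basic helix-loop-helix factors, all fell. Id4 read -1.47, -1.31, -1.43 and -1.32 on the S0 arrays and -3.16, -3.32, -3.16 and -3.66 on the S24 arrays and fell by 1.95 (SE 0.10, adjusted p = 9.01e-12). Id2 fell by 1.80 (SE 0.080, adjusted p = 7.39e-13), Id3 by 1.14 (SE 0.065, adjusted p = 3.15e-11) and Id1 by 0.78 (SE 0.062, adjusted p = 4.63e-09). Smad7, an inhibitory Smad, fell by 1.15 (SE 0.13, adjusted p = 8.81e-07) and Nog, a secreted BMP antagonist, by 1.30 (SE 0.14, adjusted p = 3.56e-07).

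Cytokines and targets of NF-kB split, with 11 of 27 tested members lower and 6 higher and a median of -0.13. Cxcl2, a chemokine for neutrophils, read -3.35, -3.41, -3.45 and -3.18 on the S0 arrays and -7.79, -7.64, -7.70 and -7.48 on the S24 arrays and was well above background on 4 S0 arrays and on 0 S24 arrays, at least 4.26-fold lower (a bound explained with the genes of this kind further on). Ptgs2, the inducible cyclooxygenase, fell by 1.52 (SE 0.064, adjusted p = 2.79e-13), and Cxcl12, a chemokine of stromal cells, by 0.89 (SE 0.075, adjusted p = 1.01e-08). Il1rl1, the receptor of interleukin 33, read -1.24, -0.93, -1.07 and -1.05 on the S0 arrays and 0.19, 0.24, 0.24 and 0.11 on the S24 arrays and rose by 1.27 (SE 0.069, adjusted p = 1.81e-11), and at 4 h it had been far above both groups, at 4.44. Ccl20, a chemokine that had stood at -1.63 at 4 h, rose by 1.04 (SE 0.10, adjusted p = 3.80e-08) from -1.34 at 0 h, so that its rise came after 4 h.

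**Figure D2:**
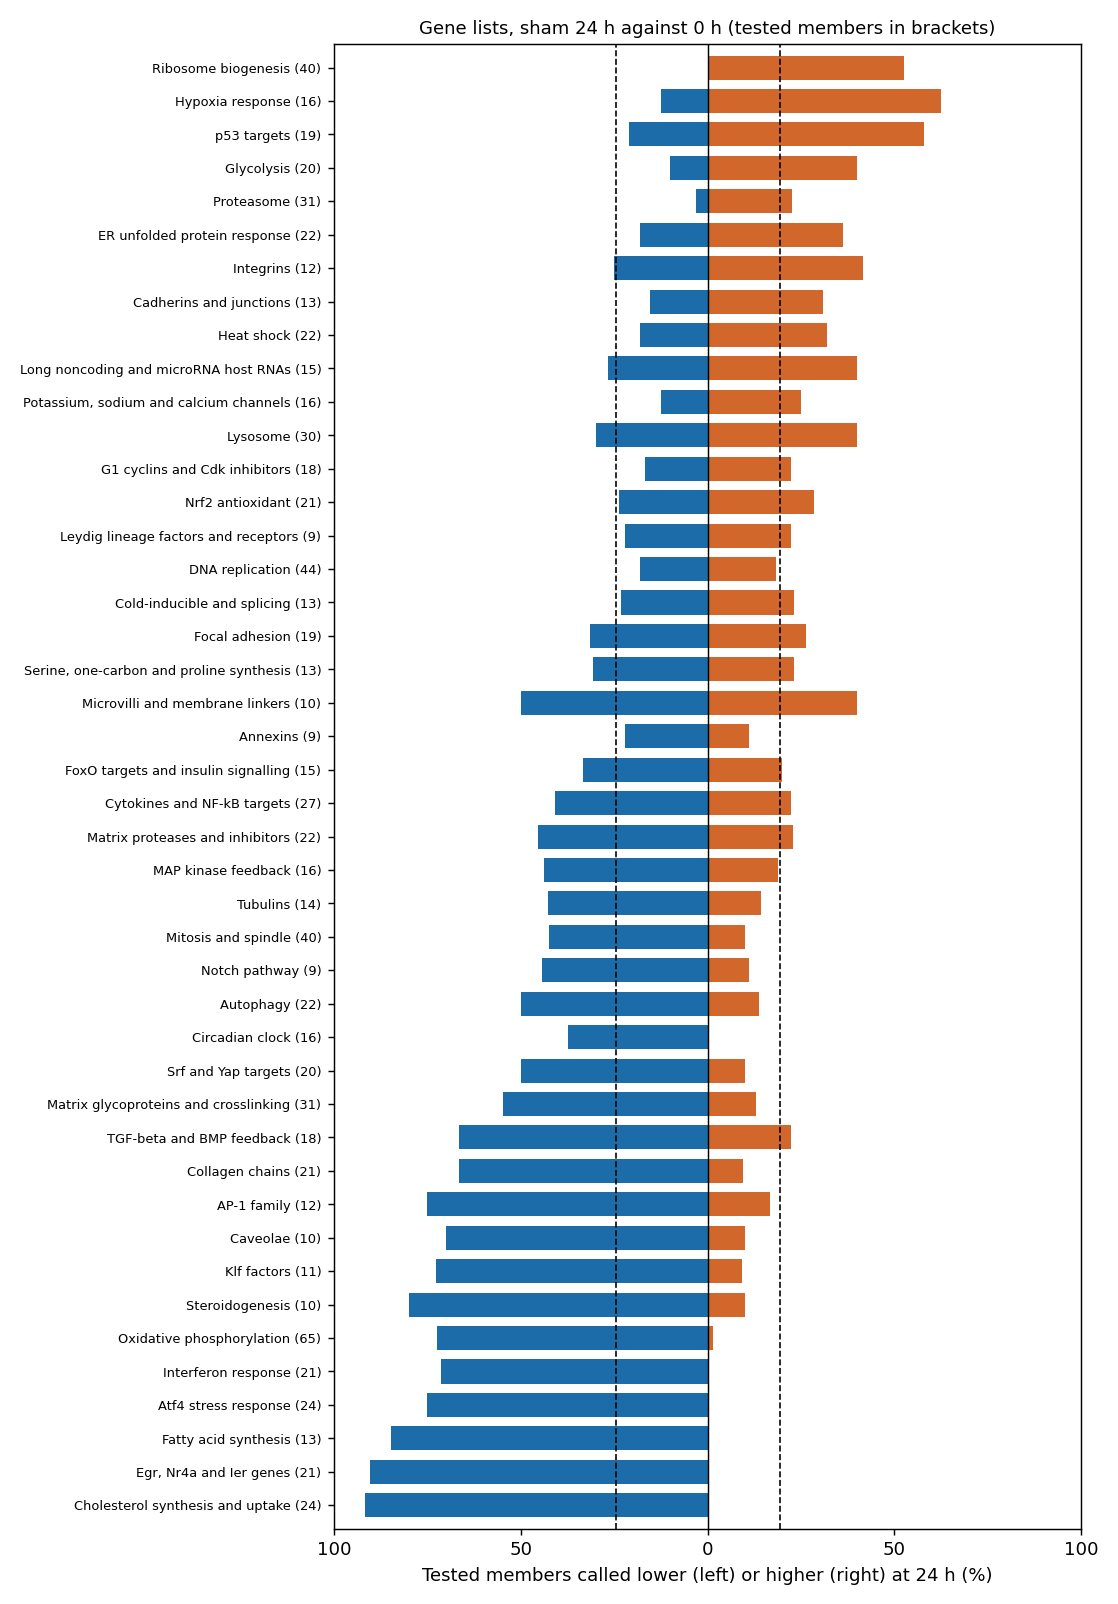
Share of the tested members called lower (left) or higher (right) at 24 h in sham cells, in percent. Shown are gene lists with at least 9 tested members, with the number tested in brackets. Lists are ordered by the share called higher minus the share called lower. Dashed lines give the shares over all 14877 genes, 24.5% lower and 19.5% higher. Cholesterol synthesis (22 of 24 lower) and the Egr, Nr4a and Ier genes (19 of 21 lower) stand near one end, and ribosome biogenesis (21 of 40 higher) and hypoxia (10 of 16 higher) toward the other.

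Most genes of cholesterol synthesis were lower. Leydig cells make cholesterol or take it up to build steroids, and the enzymes are transcribed together under the factor Srebf2. Of 24 tested genes of synthesis and uptake, 22 were lower and 0 higher, with a median of -0.87 against -0.012 over all genes, and 8 fell more than 2-fold. Between 21 and 22 were lower when single arrays or replicate numbers were left out, and the median in nsPEF cells was -0.98. On the added-RNA scale 11 were lower and 7 higher.

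The 5 largest falls were those of Tm7sf2, Lss, Mvd, Fdps and Hsd17b7. Lss, which closes the sterol ring, read 3.69, 3.71, 3.66 and 3.81 on the S0 arrays and 2.32, 2.49, 2.49 and 2.38 on the S24 arrays, and its 3 probes had differences of -1.16 to -1.32 (brightest probe, SE 0.064, adjusted p = 3.26e-12). Its mean at 4 h, 3.59, was close to that at 0 h, so that most of the fall came after 4 h. Tm7sf2, a sterol reductase, read 0.39, 0.37, 0.37 and 0.51 on the S0 arrays and -0.95, -0.87, -0.94 and -0.91 on the S24 arrays, a fall of 1.33 (SE 0.061, adjusted p = 1.14e-12). Mvd, the mevalonate diphosphate decarboxylase, fell by 1.29 (SE 0.062, adjusted p = 2.62e-12), Fdps, which makes farnesyl diphosphate, by 1.22 (SE 0.049, adjusted p = 1.42e-13), and Hsd17b7, a sterol ketoreductase that also acts on oestrone, by 1.18 (SE 0.055, adjusted p = 1.31e-12). Hsd17b7 had been at 3.81 at 4 h, above its mean of 2.81 at 0 h.

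Fatty acid synthesis, which is under the sister factor Srebf1, was lower too, with 11 of 13 tested genes lower, 0 higher and a median of -0.37. Scd2, a desaturase, fell by 0.57 (SE 0.045, adjusted p = 4.79e-09), Acly, which supplies acetyl-CoA in the cytosol, by 0.52 (SE 0.058, adjusted p = 6.25e-07), and Fasn, the fatty acid synthase, by 0.38 (SE 0.070, adjusted p = 0.000211). On the added-RNA scale 10 members were higher and 0 lower, and the sign of these 3 turned.

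In steroidogenesis 8 of 10 tested genes were lower and 1 higher, with a median of -0.33 and 0 beyond 2-fold. Cyp17a1 read 1.71, 1.61, 1.98 and 1.42 on the S0 arrays and 0.66, 0.66, 0.92 and 1.28 on the S24 arrays, a fall of 0.80 (SE 0.16, adjusted p = 0.000347) with no overlap, and the difference in nsPEF cells was -0.24, not called as different from that in sham cells (adjusted p = 0.205). Star read -3.47, -3.81, -3.58 and -3.91 on the S0 arrays and -4.26, -4.02, -4.44 and -4.47 on the S24 arrays, a low level, and fell by 0.61 (SE 0.13, adjusted p = 0.0011). Scarb1, the receptor that takes up cholesterol esters, fell by 0.65 (SE 0.049, adjusted p = 2.26e-09), and Fdxr, which passes electrons to the mitochondrial P450 enzymes, by 0.53 (SE 0.052, adjusted p = 1.23e-07). Fdxr had dropped much further at 4 h, to 0.96 from 3.45. Srd5a1, the reductase that acts on testosterone, rose by 0.27 (SE 0.065, adjusted p = 0.00247). Nr5a1 read -2.66, -2.93, -2.47 and -2.58 on the S0 arrays and -3.01, -3.00, -2.99 and -2.77 on the S24 arrays, and its fall of 0.28 (SE 0.11, adjusted p = 0.0384) was lost on leaving out any one array other than S0 replicate 2 and S24 replicate 4, or either of the numbers 1, 3 and 4 in both groups, with adjusted p values of up to 0.212. On the added-RNA scale the difference was 0.073 for Star, 0.027 for Scarb1 and 0.15 for Fdxr, none of which was called, and 0.40 for Nr5a1, which was called higher.

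Energy metabolism shifted by small amounts in many genes. Subunits of the respiratory chain and of ATP synthase were lower in 47 of 65 tested genes and higher in 1, with a median of -0.23 and 0 beyond 2-fold. The 1 higher call was lost without any single array except S24 replicate 4. The median in nsPEF cells was -0.13, quantile normalization left 23 lower calls, and on the added-RNA scale all 65 were higher. Atp5g2, a subunit of the membrane ring of ATP synthase, read 7.23, 7.23, 7.23 and 7.18 on the S0 arrays and 6.73, 6.77, 6.81 and 6.88 on the S24 arrays and fell by 0.42 (SE 0.042, adjusted p = 1.07e-07). Ndufa3 of complex I fell by 0.43 (SE 0.084, adjusted p = 0.00035) and Sdhc of complex II by 0.38 (SE 0.062, adjusted p = 5.07e-05).

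Hypoxia-inducible genes were mostly higher, 10 of 16 tested with 2 lower and a median of 0.44 (0.26 in nsPEF cells). Egln3, a prolyl hydroxylase that marks hypoxia-inducible factor for decay and is induced by it, read 0.34, 0.45, 0.33 and 0.37 on the S0 arrays and 1.66, 1.74, 1.78 and 1.67 on the S24 arrays. It rose by 1.34 (SE 0.075, adjusted p = 2.88e-11), or 2.53-fold, and had been higher still at 4 h, at 2.32. Ankrd37 rose by 0.94 (SE 0.061, adjusted p = 1.99e-10), Ero1a, an oxidase of the endoplasmic reticulum, by 0.82 (SE 0.048, adjusted p = 5.83e-11), and Car9, a cell-surface carbonic anhydrase, by 0.81 (SE 0.064, adjusted p = 4.82e-09). Vegfa did the reverse. This angiogenic factor read 2.57, 2.55, 2.34 and 2.56 on the S0 arrays and 1.43, 1.43, 1.40 and 1.23 on the S24 arrays, a fall of 1.13 (SE 0.080, adjusted p = 8.87e-10), and 3 of its 4 probes were called lower. The second lower member, Ndrg1, was called or not depending on single arrays, since 1 lower call was left without S0 replicate 1 or 4, S24 replicate 1 or 4, or replicate 1, 2 or 4 of both groups.

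In glycolysis 8 of 20 tested genes were higher and 2 lower, with a median of 0.06. Slc2a1, the glucose transporter, read 3.68, 3.78, 3.41 and 3.70 on the S0 arrays and 4.51, 4.54, 4.56 and 4.46 on the S24 arrays and rose by 0.87 (SE 0.066, adjusted p = 2.20e-09). Hk2, an inducible hexokinase, rose by 0.66 (SE 0.075, adjusted p = 6.52e-07), Slc16a3, which exports lactate, by 0.65 (SE 0.082, adjusted p = 2.59e-06), and Eno2, an enolase, by 1.06 (SE 0.068, adjusted p = 1.99e-10).

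Ribosome biogenesis was the list with the most rises and no fall. Of 40 tested genes, 21 were higher and 0 lower, with a median of 0.18 and 0.32 in nsPEF cells. The count was 13 without replicate 3 of both groups, and 1 member was lower without S0 replicate 3. Ddx21, a helicase of the nucleolus, read 1.80, 1.91, 1.68 and 1.91 on the S0 arrays and 2.48, 2.40, 2.46 and 2.16 on the S24 arrays, a rise of 0.55 (SE 0.093, adjusted p = 8.79e-05), after 4.01 at 4 h. Noc2l, a chromatin regulator related to a ribosome assembly factor, rose by 0.43 (SE 0.046, adjusted p = 2.58e-07), and Rrp12, which helps to export ribosomal subunits, by 0.38 on its bright probe (SE 0.075, adjusted p = 0.000455), whereas its dim probe was not called. Their 4 h means had been 4.18 and 4.58. All 3 genes were thus between their 0 h and 4 h levels at 24 h.

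**Figure D3:**
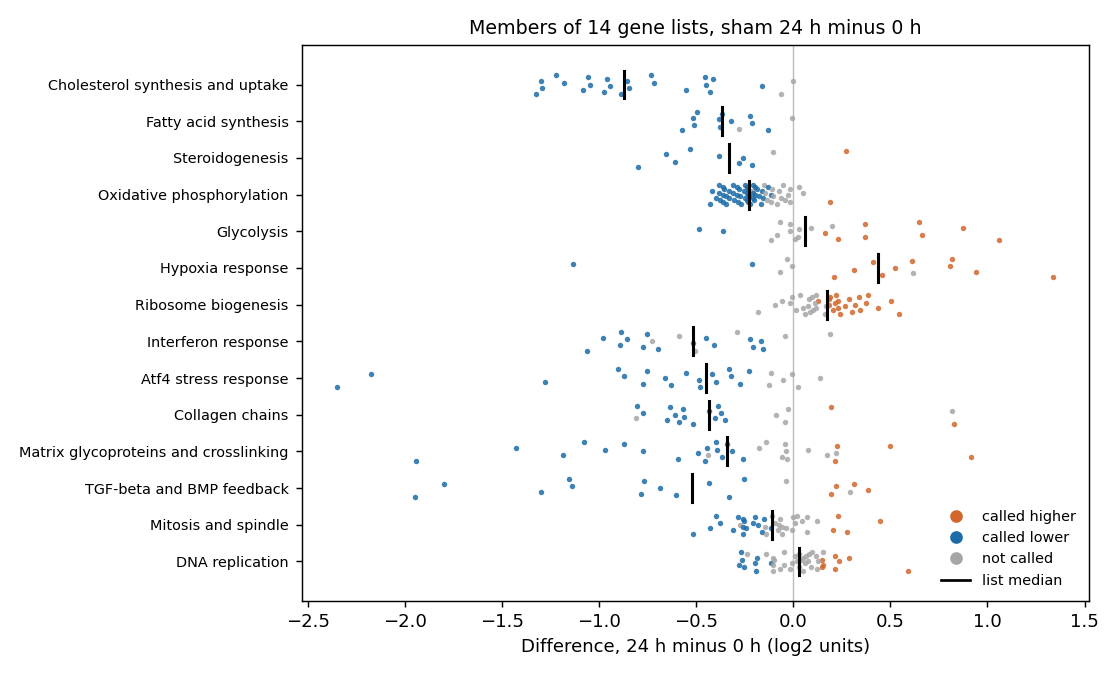
Differences (24 h minus 0 h, log2 units) of the tested members of 14 gene lists in sham cells, 1 point per gene, with black bars for list medians. Orange points were called higher, blue lower and grey not called. The cholesterol list spans -1.33 to about 0 with a median of -0.87, and the DNA replication list is centred near 0 with a median of 0.03.

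The cell cycle genes were close to their starting level. Of 44 tested DNA replication genes, 8 were higher and 8 lower, with a median of 0.03, and higher calls numbered 5 without S24 replicate 4 and 4 without replicate 1, 3 or 4 of both groups. Of 40 genes of mitosis and the spindle, 17 were lower and 4 higher (2 higher without replicate 3 of both groups), with a median of -0.11 and 0 beyond 2-fold in either direction. Nusap1, a spindle protein, read 2.53, 2.62, 2.49 and 2.56 on the S0 arrays and 1.99, 2.11, 2.05 and 1.98 on the S24 arrays and fell by 0.52 (SE 0.078, adjusted p = 2.09e-05), and at 4 h it had been lower, at 1.18. Cdc20, an activator of the anaphase-promoting complex, fell by 0.43 (SE 0.042, adjusted p = 8.82e-08). Ccnf, a cyclin that serves in a ubiquitin ligase, rose by 0.45 on its bright probe (SE 0.053, adjusted p = 1.14e-06) but not on its dim one, and with the mean of both it was not called. Ccnd1, the cyclin that growth factors induce in G1, read 2.72, 2.78, 2.63 and 2.73 on the S0 arrays and 3.11, 3.28, 3.21 and 3.05 on the S24 arrays, a rise of 0.45 (SE 0.062, adjusted p = 8.16e-06), after 4.09 at 4 h. Promoter windows were found for 33 of the mitosis genes, and the sequence TTTGAA of the cell cycle homology region stood on either strand in 25 of them (75.8%, against 15.4% of tested genes) and CCAAT in 26 (78.8%, against 42.9%).

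Targets of p53 were higher in 11 of 19 tested genes and lower in 4, with a median of 0.24. Eda2r, a receptor of the TNF family, rose by 0.69 (SE 0.15, adjusted p = 0.0013), Polk, a DNA polymerase that reads past lesions, by 0.59 (SE 0.066, adjusted p = 5.25e-07; second probe 0.22, not called), and Zmat3, an RNA-binding protein, by 0.54 (SE 0.054, adjusted p = 1.10e-07). Mdm2, which targets p53 for degradation, rose by 0.25 (SE 0.063, adjusted p = 0.0037). Cdkn1a, the Cdk inhibitor p21, read 0.43, 0.35, 0.58 and 0.54 on the S0 arrays and 0.55, 0.56, 0.59 and 0.74 on the S24 arrays on its bright probe, a difference of 0.14 that was not called (SE 0.076, adjusted p = 0.151), after 2.04 at 4 h. Its dim probe rose by 0.42 (SE 0.14, adjusted p = 0.0225), with no overlap. Gadd45a, which p53 shares with other stress pathways, fell by 0.79 (SE 0.078, adjusted p = 9.42e-08).

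Genes of the integrated stress response were lower. Of 24 tested genes downstream of Atf4, 18 were lower and 0 higher, with a median of -0.45 and 17 to 19 lower calls when arrays were left out. On the added-RNA scale 13 were higher and 3 lower. Ppp1r15a, which directs phosphatase to the initiation factor eIF2 alpha, read 3.56, 3.51, 3.56 and 3.49 on the S0 arrays and 1.15, 1.11, 1.19 and 1.29 on the S24 arrays and fell by 2.35 (SE 0.052, adjusted p = 7.10e-18), with a 4 h mean of 1.25. Fgf21, a secreted hormone of this pathway, fell by 1.28 (SE 0.14, adjusted p = 2.61e-07), Trib3, a pseudokinase, by 0.87 (SE 0.080, adjusted p = 4.02e-08), and Slc7a3, an arginine transporter, by 0.90 (SE 0.10, adjusted p = 4.40e-07). Gdf15, a stress hormone, read -3.77, -3.64, -4.09 and -1.67 on the S0 arrays and -5.19, -5.57, -5.35 and -5.75 on the S24 arrays, the last S0 array standing above the other 3, and was well above background on 2 of the S24 arrays (-2.18, SE 0.45, adjusted p = 0.000669). The difference of Gdf15 was -1.63 without S0 replicate 4 and -1.54 without replicate 4 of both groups. Atf4 itself fell by 0.63 (SE 0.10, adjusted p = 5.62e-05), which turns into a value near 0 on the added-RNA scale.

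Interferon-stimulated genes were lower too, 15 of 21 tested with 0 higher and a median of -0.51 (-0.64 in nsPEF cells). Between 11 and 15 were lower when arrays were left out. On the added-RNA scale 6 were higher and 3 lower. Irf7, a factor that amplifies the interferon response, read -0.61, -0.68, -0.52 and -0.55 on the S0 arrays and -1.64, -1.58, -1.62 and -1.43 on the S24 arrays and fell by 0.98 (SE 0.10, adjusted p = 1.66e-07), with -1.01 on a dim probe that was not called (SE 0.58, adjusted p = 0.173). Isg15, a ubiquitin-like protein, fell by 0.89 (SE 0.085, adjusted p = 6.25e-08), Psmb8, a subunit of the immunoproteasome, by 0.89 (SE 0.15, adjusted p = 5.86e-05), and Xaf1 by 1.06 (SE 0.13, adjusted p = 2.69e-06).

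Components of the extracellular matrix were lower in most cases. Of 21 tested collagen chains, 14 were lower and 2 higher (1 higher without any single array), with a median of -0.43. Of 31 matrix glycoproteins and crosslinking enzymes 17 were lower and 4 higher (2 higher without S0 replicate 4, S24 replicate 1 or replicate 1 of both groups), with a median of -0.34. On the added-RNA scale 12 collagen chains were higher and 0 lower, and of the glycoproteins and crosslinking enzymes 19 were higher and 5 lower. Col1a2, a chain of collagen I, read 7.37, 7.25, 7.39 and 7.37 on the S0 arrays and 6.53, 6.57, 6.54 and 6.64 on the S24 arrays, a fall of 0.77 (SE 0.052, adjusted p = 3.76e-10), and Col1a1, the other chain, fell by 0.43 (SE 0.056, adjusted p = 3.54e-06). Col7a1, of the anchoring fibrils, rose by 0.83 (SE 0.11, adjusted p = 6.79e-06). Tgm2, a transglutaminase that links matrix proteins, read 2.05, 2.14, 2.16 and 2.15 on the S0 arrays and 0.19, 0.09, 0.30 and 0.15 on the S24 arrays and fell 3.84-fold (SE 0.074, adjusted p = 6.10e-14). Fmod fell by 1.43 (SE 0.092, adjusted p = 2.24e-10) and Dcn by 0.97 (SE 0.073, adjusted p = 1.98e-09), both small proteoglycans that bind collagen. Nid2, of basement membranes, fell by 1.19 (SE 0.074, adjusted p = 1.49e-10) and Lox, which crosslinks collagen, by 1.08 (SE 0.10, adjusted p = 7.43e-08). Spp1, a matrix protein that cells bind through integrins, rose by 0.91 (SE 0.078, adjusted p = 1.33e-08).

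Matrix proteases moved in both directions. Of 22 tested proteases and inhibitors, 10 were lower and 5 higher. Mmp10, a stromelysin, read -1.03, -1.03, -1.23 and -1.09 on the S0 arrays and 0.47, 0.32, 0.40 and 0.32 on the S24 arrays, a rise of 1.47 (SE 0.072, adjusted p = 3.26e-12), and at 4 h it had stood higher, at 1.30. Mmp3, the related stromelysin, rose by 1.06 (SE 0.052, adjusted p = 3.00e-12). Adamts1, a protease of proteoglycans, read 2.81, 2.75, 2.71 and 2.84 on the S0 arrays and 1.09, 1.07, 1.05 and 0.85 on the S24 arrays and fell by 1.76 (SE 0.083, adjusted p = 1.61e-12), having been lower still, at 0.36, at 4 h. Adamts5 fell by 1.39 on one probe (SE 0.18, adjusted p = 3.70e-06) and differed by -0.83 on another that was not called (SE 0.45, adjusted p = 0.143). Plat, the tissue plasminogen activator, fell by 0.71 (SE 0.067, adjusted p = 5.42e-08).

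Of 12 tested integrin chains, which form receptors for matrix, 5 were higher (3 without replicate 3 of both groups) and 3 lower. Itga1, a collagen receptor chain, read -2.28, -2.44, -2.38 and -2.36 on the S0 arrays and -3.86, -4.02, -3.69 and -3.63 on the S24 arrays and fell by 1.44 (SE 0.19, adjusted p = 6.35e-06), with -0.44 on a second probe that was not called (SE 0.36, adjusted p = 0.338), while the laminin receptor chain Itga6 read 3.42, 3.45, 3.43 and 3.51 on the S0 arrays and 4.14, 4.21, 4.15 and 4.20 on the S24 arrays and rose by 0.72 (SE 0.039, adjusted p = 1.67e-11). Itga6 had been at 5.89 at 4 h, so that most of its rise had been lost again by 24 h. Itga11, another collagen receptor chain, differed by -1.49 (SE 0.38, adjusted p = 0.00388) and was well above background on 1 S24 array, and Itga10, a collagen receptor chain as well, rose by 0.58 (SE 0.070, adjusted p = 1.35e-06). Of 20 tested targets of Srf and Yap, the factors that follow actin and spreading, 10 were lower and 2 higher (6 lower without replicate 1 of both groups, and 1 higher without S0 replicate 4, S24 replicate 3 or replicate 1 or 4 of both groups), with a median of -0.15. Myl9, a myosin light chain, read 0.74, 0.91, 0.94 and 0.85 on the S0 arrays and -1.20, -1.56, -0.92 and -1.24 on the S24 arrays, a 4.24-fold fall (SE 0.11, adjusted p = 8.21e-12). Ccn1, a matricellular protein, read 5.06, 5.04, 5.02 and 4.99 on the S0 arrays and 3.62, 3.59, 3.70 and 3.69 on the S24 arrays and fell by 1.38 (SE 0.044, adjusted p = 3.11e-15), with 4.72 at 4 h. Rhob, a small GTPase that many stimuli induce rapidly, fell by 2.27 (SE 0.075, adjusted p = 5.36e-15).

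Of 16 clock genes tested, 6 were lower and 0 higher (1 higher without S0 replicate 2), with a median of 0.03. Bhlhe40, a clock repressor that is also an immediate-early gene, fell by 1.20 (SE 0.087, adjusted p = 1.13e-09) and Per1 by 0.68 (SE 0.061, adjusted p = 2.70e-08).

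Calls in other lists went in both directions. Heat shock proteins had 7 higher and 4 lower members of 22 tested (2 lower without S24 replicate 2 or replicate 2 of both groups), with a median of 0.069, and the unfolded protein response of the endoplasmic reticulum 8 and 4 of 22 (4 higher without replicate 4 of both groups), with a median of 0.091. Of 31 proteasome subunits 7 were higher and 1 lower (4 higher without replicate 3 or 4 of both groups), of 14 tubulins 2 were higher and 6 lower, and of 10 linkers and microvillar proteins that tie the membrane to actin 4 were higher and 5 lower. Of 13 enzymes of serine, one-carbon and proline synthesis 3 were higher and 4 lower. Over all genes 44% were called, 19.5% higher and 24.5% lower. The shares called were 50% for heat shock, 54.5% for the unfolded protein response and 53.8% for the serine group. They were 25.8% for the proteasome, 57.1% for tubulins and 90% for the linkers and microvillar proteins.

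The largest rises were fewer, smaller and of mixed function, and noncoding RNAs stood among them. Mir100hg, a long noncoding RNA that hosts microRNAs, had the largest rise of the named genes. It read -2.11, -2.16, -1.86 and -2.08 on the S0 arrays and 1.20, 1.18, 1.20 and 1.14 on the S24 arrays, which is 9.43-fold (SE 0.093, adjusted p = 4.56e-16), with no overlap. A second probe rose by 3.02 (SE 0.12, adjusted p = 1.16e-13) and one more, dim probe differed by 0.73 (SE 0.56, adjusted p = 0.316) and was not called. At 4 h it had been at 1.53, so that it was near its 4 h level, and the rise in nsPEF cells was 3.05. Dnm3os, another host, read -1.10, -1.07, -1.18 and -1.09 on the S0 arrays and -0.17, -0.08, -0.04 and -0.13 on the S24 arrays and rose by 1.01 (SE 0.13, adjusted p = 3.69e-06), while its 4 h mean was -1.25. Mir22hg rose by 0.80 (SE 0.082, adjusted p = 1.50e-07). Of the 15 tested long noncoding and host RNAs, 6 were higher and 4 lower.

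The 11 mature microRNAs that were matched within these 3 host genes, from the RefSeq table on GRCm38.p6, are printed to show what the hosts could carry, 5′ to 3′ with bases 2 to 8 (the seed) in capitals. Mir100hg spans chr9:41376526-41615185, Dnm3os chr1:162217623-162225550 and Mir22hg chr11:75461539-75466690.
mmu-miR-100-5p: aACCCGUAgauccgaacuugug
mmu-miR-100-3p: aCAAGCUUgugucuauagguau
mmu-let-7a-2-3p: cUGUACAGccuccuagcuuuc
mmu-miR-125b-5p: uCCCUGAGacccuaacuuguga
mmu-miR-125b-1-3p: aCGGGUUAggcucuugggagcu
mmu-miR-199a-5p: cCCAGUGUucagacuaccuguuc
mmu-miR-199a-3p: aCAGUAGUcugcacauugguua
mmu-miR-214-5p: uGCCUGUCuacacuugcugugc
mmu-miR-214-3p: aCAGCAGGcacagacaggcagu
mmu-miR-22-5p: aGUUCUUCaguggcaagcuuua
mmu-miR-22-3p: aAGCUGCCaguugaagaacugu
No seed is shared among the printed microRNAs, and the arrays measured the host RNAs, not the mature microRNAs. The set may be incomplete, since the 5p strand of let-7a-2 was not matched and Carmn, described below, was not searched.

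Among the protein-coding genes, Slco4a1, an organic anion transporter, read 1.19, 1.19, 1.14 and 1.18 on the S0 arrays and 3.25, 3.26, 3.34 and 3.24 on the S24 arrays and rose 4.29-fold (SE 0.055, adjusted p = 1.09e-16), to the level it had at 4 h (3.19). Its dim second probe differed by 0.52 and was not called. Phex, an endopeptidase of phosphate balance, read -1.27, -1.16, -1.31 and -1.16 on the S0 arrays and 0.38, 0.49, 0.52 and 0.33 on the S24 arrays and rose 3.16-fold (SE 0.068, adjusted p = 1.67e-13). Itgb2, the beta chain of leukocyte integrins, rose by 1.60 (SE 0.053, adjusted p = 5.10e-15), from -1.70 to -0.10, after 0.55 at 4 h. Prl2c1, of the prolactin family, rose by 1.58 (SE 0.12, adjusted p = 3.29e-09), and transcripts of close relatives in the genome may bind to its probe. Of the small nucleolar host RNAs, Snhg4 rose by 2.00 (SE 0.12, adjusted p = 1.38e-10) and Snhg20 by 1.73 (SE 0.070, adjusted p = 1.55e-13). Carmn, a long noncoding RNA of smooth muscle and heart, read -2.79, -2.80, -2.74 and -2.71 on the S0 arrays and -0.80, -0.86, -0.75 and -0.79 on the S24 arrays and rose by 1.96 (SE 0.13, adjusted p = 4.38e-10), most of it after 4 h (-2.02).

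Several rises rested on dim or single probes. Styk1 rose by 1.68 (SE 0.15, adjusted p = 2.56e-08) and Acsbg1 by 1.64 (SE 0.15, adjusted p = 3.06e-08). Ttc14 rose by 1.79 on the probe with the largest change and by 0.48 and 0.72 on its others. Wdcp rose by 1.84 on a dim probe and fell by 0.31 on a brighter one, so its direction depends on the probe. The S24 arrays of Fndc9 (-4.15, -4.14, -2.05 and -3.01), Add2 (-1.65, -4.43, -2.96 and -4.25) and Lat2 (-3.10, -3.21, -3.25 and -1.53) were spread over more than 1 log2 unit, and the calls of Fndc9 and Add2 were lost with normexp background correction, that of Add2 also in a fit to the 8 arrays alone. A second probe of Lat2 differed by 0.62 and was not called (SE 0.39, adjusted p = 0.216).

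**Figure D4:**
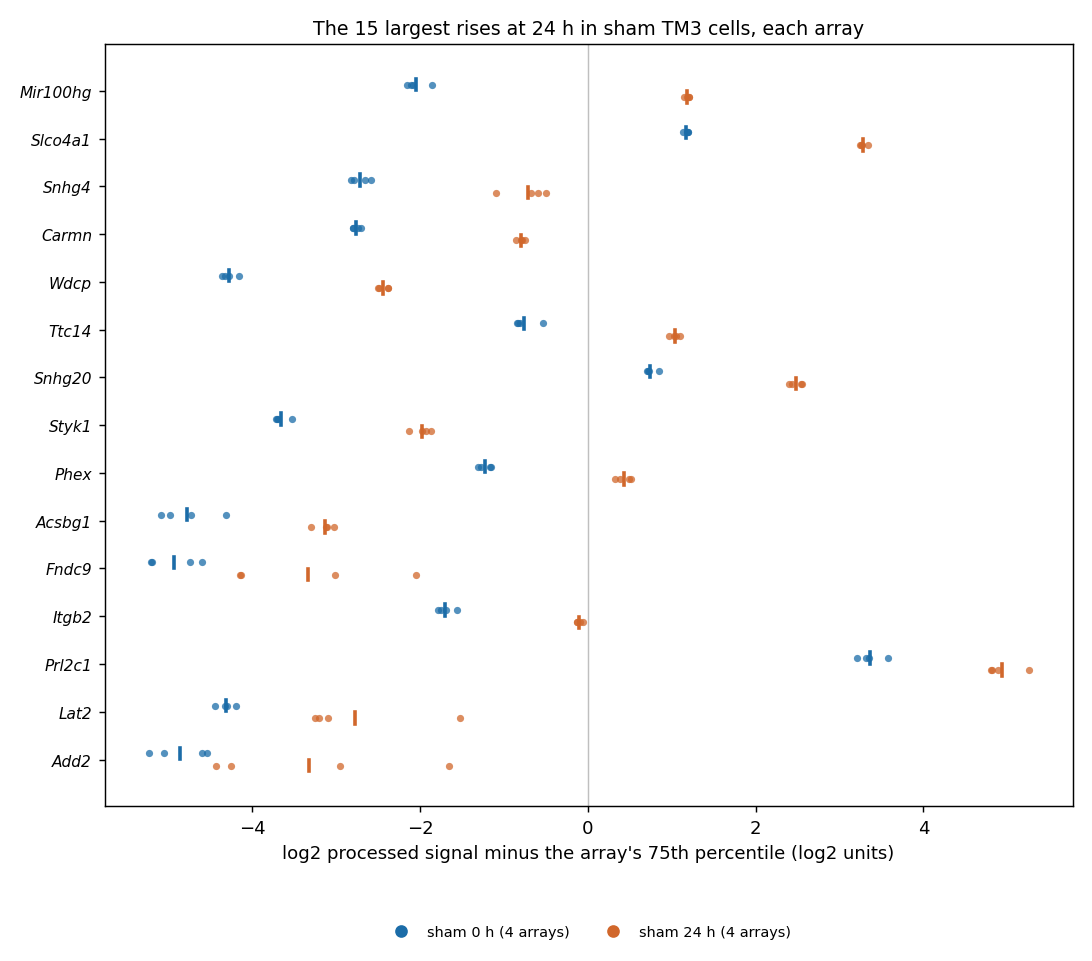
The 15 largest rises at 24 h in sham TM3 cells among named genes detected on all 8 arrays. The horizontal axis is the log2 processed signal minus the 75th percentile of the array, points are the 4 arrays of a group and short bars their means. For Mir100hg the S0 arrays lie between -2.16 and -1.86 and the S24 arrays between 1.14 and 1.20, while Fndc9, Lat2 and Add2 show the widest spread at 24 h.

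Among the other large falls, Hp, which encodes haptoglobin, read 2.84, 2.98, 3.06 and 2.97 on the S0 arrays and 0.75, 0.57, 0.87 and 0.75 on the S24 arrays, a fall of 2.23 (SE 0.15, adjusted p = 4.71e-10), with 1.99 at 4 h. Prg4, a lubricating proteoglycan, read 0.29, 0.34, 0.03 and 0.14 on the S0 arrays and -1.92, -2.16, -2.01 and -2.07 on the S24 arrays and fell by 2.24 (SE 0.15, adjusted p = 3.35e-10), again after -0.28 at 4 h. For Ctsl, a lysosomal protease, the direction depends on the probe, with a fall of 2.43 on a dim probe and a rise of 0.26 on the brighter one (SE 0.035, adjusted p = 4.30e-06).

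Transcripts that passed from clear signal to background, or the reverse, have only a bound. For a gene near background throughout a group, each of its values there was raised, where lower, to the dimmest signal that the same array counted as clear of background, and the fold against the brighter group was taken from that. Fam71a read -0.02, -0.05, 0.05 and 0.03 on the S0 arrays and was not well above background at 24 h, at least 43.4-fold lower (measured difference -7.50, SE 0.39, adjusted p = 9.05e-12). Lsmem1, which read -1.09, -1.13, -1.03 and -0.76 at 0 h, was at least 21.6-fold lower, and Apol8, an apolipoprotein L, at least 15.3-fold lower. In the other direction Gsta2, a glutathione transferase with near-identical relatives, read -4.02, -4.12, -3.87 and -4.13 on the S24 arrays and was at least 2.67-fold higher. Fam83e was at least 2.52-fold higher, Tpsg1, a tryptase of mast cells, at least 2.30-fold (at least 1.46-fold without S24 replicate 3), and Acot6, an acyl-CoA thioesterase, at least 1.77-fold. One probe of Zfp606 was at least 2.64-fold higher, but its bright probe fell by 0.17 (SE 0.061, adjusted p = 0.0294). The calls of Gsta2, Fam83e, Tpsg1, Acot6 and Zfp606 were all lost with normexp background correction.

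Of the markers of other cells of the testis, many defining ones were not detected, and those tested were lower or not called except for Pecam1. The samples are labelled as 1 cell line, TM3, so signal of such a marker does not show that the cell type it is named for was present. In RNA from a whole culture, fewer cells of a type and less RNA per cell cannot be told apart. Of the Sertoli markers 4 of 8 were tested and 2 were lower, and Amh, Dhh, Fshr and Cldn11 were not tested. The summed signal of the tested ones was 20.9 to 25.5 times the 75th percentile on the S0 arrays and 18.5 to 20.9 times on the S24 arrays. Sox9, a Sertoli cell factor that other cells also make, read -0.69, -0.71, -0.69 and -0.71 on the S0 arrays and -3.43, -3.49, -3.61 and -3.52 on the S24 arrays, a fall of 2.81 (SE 0.23, adjusted p = 6.11e-09), with -1.92 at 4 h, but its dimmer probe fell by 0.64 only (SE 0.17, adjusted p = 0.00577). Rhox5 fell by 1.00 (SE 0.11, adjusted p = 3.09e-07).

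Of the macrophage markers 4 of 7 were tested and all 4 were lower, while Adgre1, Ptprc and Lyz2 were well above background on 0 of the 8 arrays. Their summed signal was 9.94 to 10.9 at 0 h and 7.73 to 7.92 at 24 h, and Cd68, also a lysosomal protein of other cells, read 0.28, 0.25, 0.25 and 0.23 on the S0 arrays and -0.92, -1.01, -1.01 and -0.69 on the S24 arrays, a fall of 1.16 (SE 0.10, adjusted p = 2.23e-08). Of the germ cell markers 5 of 8 were tested and 2 were lower, with sums of 1.12 to 1.21 and 0.778 to 0.852, and Ddx4 fell by 0.95 (SE 0.18, adjusted p = 0.000245). Of the peritubular markers 5 of 6 were tested and 2 were lower (4 without S0 replicate 2), with sums of 31.6 to 39.2 and 29.7 to 31.3, Cnn1 among them with a fall of 0.92 (SE 0.10, adjusted p = 2.86e-07). Pecam1 alone of the 6 endothelial markers was tested, and it rose by 0.66 (SE 0.11, adjusted p = 9.50e-05), a call lost with normexp background correction. The same sum over 10 steroidogenic genes was 109 to 116 at 0 h and 85.4 to 93.8 at 24 h. It is weighted to its bright members, and Star and Nr5a1 add little to it, so it does not measure the share of Leydig cells. The part of other cells in the changes above was not tested.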

How the data were processed

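RNA of 4 sham and 4 nsPEF samples at each of 0, 4 and 24 h was labelled with Cy3 and hybridized to 24 one-colour arrays on 3 slides. The deposited scanner files hold, per the file headers, the processed signal intensity of each spot, from which the authors' Agilent Feature Extraction 12.0 (per the submitters' processing notes) had subtracted background and trends. The deposited series table holds log2 values that the authors made with GeneSpring by a 75th percentile shift and a median baseline, and it was used as an alternative. Of its columns, 0 were left without a sample.

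The 59305 spots other than controls were averaged to 56605 probes, leaving out spots marked as outliers, and saturated spots numbered 0. A gene symbol was given for 34566 probes (61.1%). Values are log2 signals minus the 75th percentile of the array. Probes well above background on all 4 S0 or all 4 S24 arrays were tested in R 4.3.3 with limma 3.58.1, after reading with the data.table package (version 1.17.8), by a fit of 6 group means to all 24 arrays, a contrast of S24 minus S0 and Benjamini-Hochberg adjustment over all tested probes at a threshold of 0.05. Genes in lists were read by their brightest tested probe. The added RNA was read on 210 spots of 6 probes. The procedure was tested on simulated data.

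Named genes were the 15 largest rises and 15 largest falls among called probes well above background on all 8 arrays and outside the first and last 48 of the 384 rows of spots, the 5 largest in each direction among probes detected in 1 group only, and up to 5 members of each of 51 gene lists with any that define it. Symbols of uncharacterised loci were skipped (5 in the first group). Some genes that met these rules are not reported here. Plk2, Nr4a3 and Ndrg1 were named after their values were seen, as was Cxcl2 with its detection. Members and lists were chosen with earlier results of these data known. Promoter and microRNA sequences come from RefSeq tables on GRCm38.p6. The alternatives are given in the closing section. Precision is limited by how far a probe stands above background and by having 4 arrays a group.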

Additional observations from a re-analysis of the deposited data

Results flagged for a closer look

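Of 312 groups of arrays, taken gene by gene, those with a value on all 4 arrays were checked, which left out Fos at 24 h. An array far from the other 3 of its group was found in 26, and chance gives about 1 in 20 of those checked. The values are log2 signals on the scale used above. On S0 replicate 1 Eda2r read -2.45, Noc2l 3.14 and Tgm2 2.05. On S0 replicate 2 Ttc14 read -0.54, Acot6 -7.37, Col1a2 7.25, Lox 5.10 and Ptgs2 2.90. On S0 replicate 3 Col7a1 read -1.55, Eno2 1.95, Hk2 1.17, Id1 4.96, Mafg 3.73, Smad7 0.80, Snhg3 2.76 and Vegfa 2.34. On S0 replicate 4 Styk1 read -3.52, Atp5e 5.95, Atp5g2 7.18 and Egr1 5.49. On S24 replicate 3 Tpsg1 read -2.29, against -5.06 to -4.80 on the others. On S24 replicate 4 Prl2c1 read 5.25, Lat2 -1.53, Ereg 0.60, Nr5a1 -2.77 and Rrp12 2.43. Most of these arrays lay less than 0.4 from the rest, and Lat2 (others -3.25 to -3.10), Tpsg1 and Acot6 (others -6.20 to -6.06) lay further. Without S0 replicate 3, limma called 12106 probes, 1467 of them with a 2-fold difference.

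The change from 0 h to 24 h differed between nsPEF and sham cells for 2 of the described genes by limma with Benjamini-Hochberg adjustment over all probes. Ccn1 fell by 1.66 in nsPEF cells and by 1.38 in sham cells, a difference of -0.29 (adjusted p = 0.0493). Nr4a2 fell by 2.95 and 2.47 on its brighter probe, a difference of -0.48 (adjusted p = 0.043), and its other probe was not called (adjusted p = 0.114).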

How the results depend on the processing

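Leaving out single arrays or replicate numbers gave 10585 to 12832 called probes, 5270 to 6154 higher, 5315 to 6784 lower, 1459 to 1546 with a 2-fold difference and 13 to 20 higher genes of ribosome biogenesis, the 13 without replicate 3 of both groups. Normexp background correction, with its offset of 50, left 259 probes with a 2-fold difference and a median of -0.079, with 11775 calls. Quantile normalization left 23 lower genes of oxidative phosphorylation, and the 75th percentile over probes detected on all 24 arrays gave a median of 0.043. Among the 29868 probes detected on all 8 arrays, 953 passed 2-fold, against 1521 of 32424 in the main fit. The remaining tested probes were detected on all arrays of S0 or of S24 but not of both.

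Scaling on the added RNA gave 27246 calls, 26748 higher and 498 lower, 6898 with a 2-fold difference, a median of 0.69 and 23850 calls in nsPEF cells. Lower genes numbered 3 for the interferon response, 3 downstream of Atf4 and 0 for oxidative phosphorylation. They numbered 11 for cholesterol, 0 for collagens and 5 for TGF-beta and BMP. Higher genes of these lists numbered 6, 13, 65, 7, 12 and 8 in the same order. Ribosome biogenesis had 40 higher. The sign turned for Acly 0.17, Atf4 0.053, Atp5e 0.28, Atp5g2 0.26, Cdc20 0.25, Col1a1 0.25, Fasn 0.30, Fdxr 0.15, Ndufa3 0.25, Nr5a1 0.40, Nusap1 0.16, Per1 0.0055, Scarb1 0.027, Scd2 0.11, Sdhc 0.30 and Star 0.073. The mean of its probes turned Ctsl to -1.09. The cause was not tested.

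With the replicate number as a replicate block, 13353 probes were called and 1541 passed 2-fold, and of 156 gene results 154 kept direction and call. Same-numbered samples correlated by -0.10 to 0.06, so the numbers were not taken as a pairing. Of the 156, 109 kept both under each alternative run on them (142 could be run on probes detected on all 8 arrays and 127 on the middle rows). With no filter on dim probes 12478 were called (2192 with a 2-fold difference), with quantile normalization 13394, in a fit to the 8 sham arrays 16040, with the authors' log2 values 13378, on the middle rows 10834 and without moderation 13686. Normexp ended the calls of Fndc9, Add2, Zfp606, Gsta2, Tpsg1, Fam83e, Acot6, Mir99ahg, Pecam1 and Utp15. Time, slide and scan coincide, and dim probes carry the widest errors.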
